A study of Mus musculus with 6 samples.

Results

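The transcripts of 38 genes of autophagy and the lysosome were followed in natural killer (NK) cells sorted from the spleens of 6 mice at steady state. The genes were taken by symbol from a list of the autophagy machinery, mitophagy receptors, TFEB family factors and lysosomal hydrolases. The rule held no measured value, but the list was chosen with earlier results of these data known. All 38 were found among the 55291 gene names of the count table. None of them passed the test for a difference between the genotypes (adjusted p under 0.05), and for 28 of them the 95% interval of the fold lay within 1.5-fold in either direction.

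Of the 6 mice, 3 were wild type (WT 1, 2 and 3) and 3 carried the S303/7A form of heat shock factor 1 (HSF1), in which 2 serines are replaced by alanine (S303/7A 5, 6 and 7). HSF1 activates chaperone genes under heat and other stress, and the series text describes the mutant animals as HSF1-enhanced. Per the labels' protocols, DX5 beads enriched the cells before a sort for CD49b without CD3e, and each mouse gave 1 library, made with a SMART-seq HT kit. The sources used here do not give the age, sex and strain of the mice or the cells in which the change acts. The mutation alters 2 codons, so the level of the Hsf1 transcript does not check the labels. The log2 fold of Hsf1 between S303/7A and WT was -0.67 ± 0.22 (SE; edgeR quasi-likelihood test, adjusted p 0.386).

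Autophagy encloses cytoplasm, protein aggregates or whole mitochondria in a double membrane and delivers them to the lysosome, where acid hydrolases break them down. A kinase complex starts the membrane, a lipid kinase complex marks it, and 2 conjugation systems attach small proteins of the ATG8 family to its lipids. Receptors then tie cargo to the ATG8 proteins. TFEB and TFE3 are transcription factors that bind E-box motifs near lysosome and autophagy genes. In NK cells the lysosome is also the base for the cytotoxic granules, and autophagy is known to support the survival of developing and memory NK cells.

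The E-box bound by TFEB and TFE3 holds the letters CACGTG, and its places near the member genes are shown because both factors are members and both were transcribed here. RefSeq promoter sequence (GRCm38.p6) matched 29 of the 38 genes by symbol. The other 9 were Rb1cc1, Becn1, Pik3c3, Atg12, Atg16l1, Map1lc3a, Bnip3l, Ctsb and Npc1. In the 250 bases before the RefSeq start, 7 of the 29 genes held CACGTG, which reads the same on both strands. It was found in 6.02% of all 32851 windows of that length. Here and below, members were counted by gene and the whole set by window, so the shares differ in unit. The longer form TCACGTGA, also its own reverse complement and containing the shorter motif, was found in 2 of the 29 (Atg3 and Ctsd), compared with 0.785% of all windows. The windows of 30 bases around each match are given 5′ to 3′ on the strand of the gene, with the 6 motif letters in capitals.

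Ctsd, chr7:142387908-142387937, minus strand: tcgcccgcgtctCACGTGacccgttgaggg
Ctsd, chr7:142388048-142388077, minus strand: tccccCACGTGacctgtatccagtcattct
Atg3, chr16:45158723-45158752, plus strand: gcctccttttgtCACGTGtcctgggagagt
Atg3, chr16:45158746-45158775, plus strand: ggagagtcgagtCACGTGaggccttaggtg
Gaa, chr11:119267811-119267840, plus strand: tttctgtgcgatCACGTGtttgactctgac
Atg7, chr6:114670952-114670981, plus strand: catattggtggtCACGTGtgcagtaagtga
Bnip3, chr7:138909597-138909626, minus strand: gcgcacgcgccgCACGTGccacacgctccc
Atg5, chr10:44268313-44268342, plus strand: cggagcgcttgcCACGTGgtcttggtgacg
Ctsl, chr13:64370739-64370768, minus strand: ggcgttagaagcCACGTGctgatctaaatt

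The motif began 14 bases before the RefSeq start in Atg5 and 245 bases before it at the more distant Ctsd match. In the GENCODE M21 annotation the Atg7 match lay in an intron, the Ctsl match and the nearer Ctsd match lay in an annotated exon, and the other 6 lay upstream of the gene. A heat shock element, the motif that HSF1 binds, was searched on both strands. It was taken as 3 units of GAA and TTC in turn with 2 free letters between them. It was found in 0 of the 29 genes and in 0.466% of all windows. These counts describe letters in a short window and not binding. The 7 genes with CACGTG had log2 folds of S303/7A over WT from -0.06 for Gaa to 0.21 for Atg3.

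The WT libraries held between 53845572 and 72736406 counts and the S303/7A libraries between 43189163 and 47248039, so the groups differed in depth. The 38 genes took from 0.682% to 0.744% of the counts of a library. Over the 6 libraries their total counts ran from 435 for Wipi1 to 1024168 for Ctsd, and 34 had a mean above 10 CPM (counts per 1000000 counts of the library, scaled by edgeR's TMM factors). The marker list for NK cells summed to between 20057 and 24241 CPM per library, and no marker of that list was at 0. In RNA from a sorted population, fewer cells of a type and less RNA per cell cannot be told apart. The p-values weigh the difference between genotypes against the spread between 3 mice per genotype, an estimate partly shared over all genes tested.

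Levels were compared between genes as CPM per kilobase of annotated exon (GENCODE M21), since longer transcripts collect more reads. The length took in all annotated exons of a gene, so the order between genes on this scale depends on the annotation. On that scale the lysosomal aspartyl protease gene Ctsd stood highest, at 1355 ± 47.7 in WT compared with 1328 ± 85.1 in S303/7A (mean ± SD, n = 3 each). Sqstm1, which encodes the cargo receptor p62, followed at 185 ± 8.22 and 194 ± 12.1, and Gabarap of the ATG8 family at 127 ± 10.6 and 125 ± 6.70. At the other end lay Wipi1, at 0.386 ± 0.137 in WT and 0.199 ± 0.0710 in S303/7A, and Ctsl, at 0.915 ± 0.215 and 0.995 ± 0.129. Thus within the cathepsins Ctsd and Ctsl lay at opposite ends, and within the WIPI proteins, which read the lipid mark on the growing membrane, Wipi2 (10.3 ± 0.378 in WT) lay far above Wipi1. Of the 2 factors, Tfeb (14.1 ± 2.37 in WT) lay above Tfe3 (5.56 ± 0.449).

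**Figure D1:**
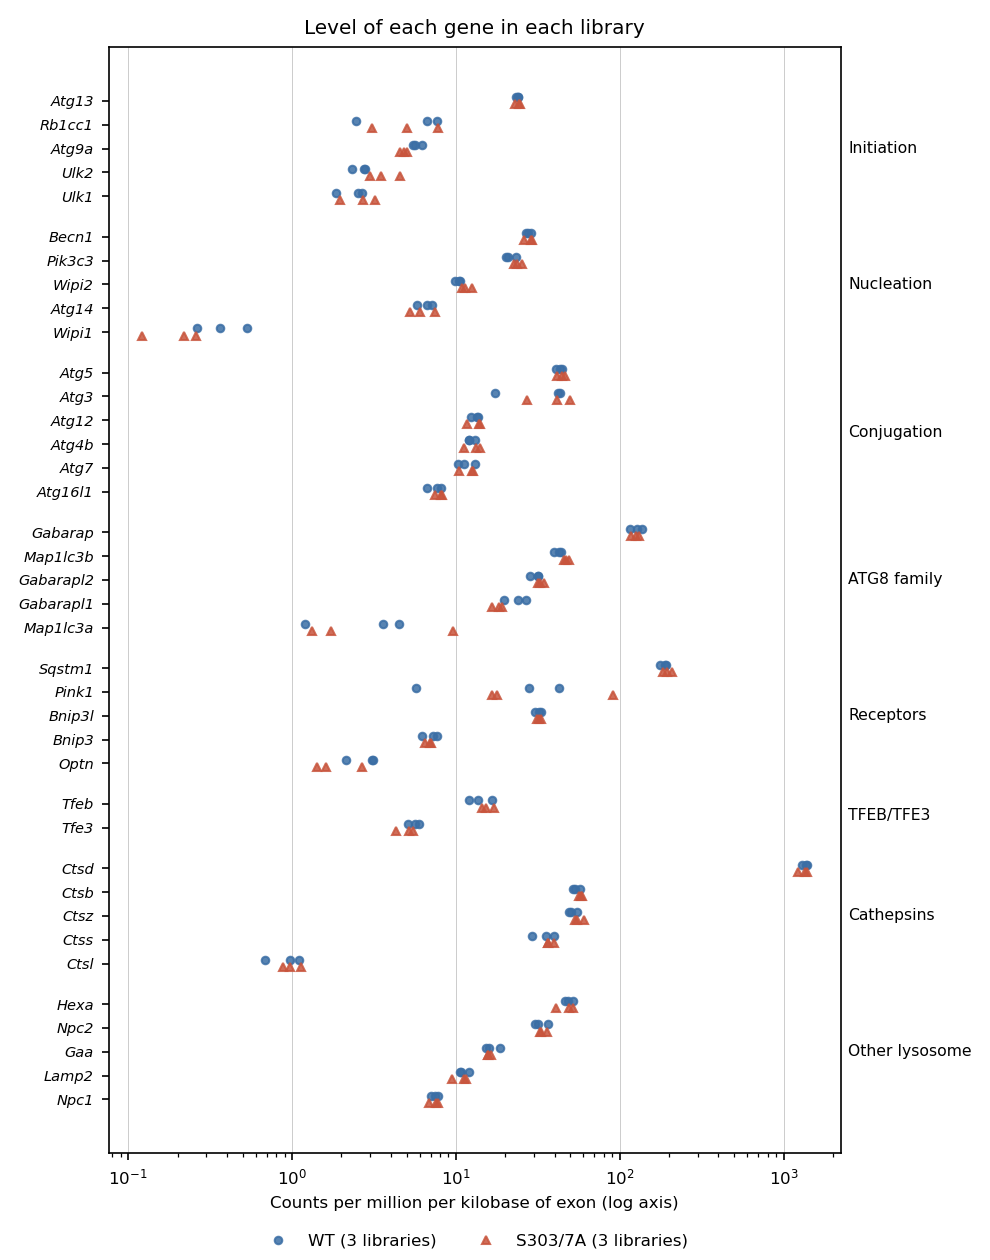
Level of each gene in each library, as CPM per kilobase of exon on a log axis, with genes grouped by role and ordered by mean level within a role. Circles are the 3 WT and triangles the 3 S303/7A libraries. Ctsd lies highest and Wipi1 lowest, and Pink1, Map1lc3a, Rb1cc1 and Atg3 have points far apart within both genotypes.

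Of the 16480 genes that passed the filter on low counts, 60 (0.364%) were called at an adjusted p under 0.05 in edgeR's quasi-likelihood test with Benjamini-Hochberg adjustment. All 38 members passed the filter and 0 were called, with a lowest adjusted p of 0.432 (Gabarapl1). DESeq2 and limma-voom also called 0 of them. At an unadjusted p under 0.05 there were 4 members, 2 with a higher and 2 with a lower mean in S303/7A, or 10.5%, compared with 9.68% of all genes. The values of the groups did not overlap for 7 members (18.4%), compared with 16.0% of all genes tested. Among the 7, 4 had all S303/7A values above the WT values, compared with 7.64% of all genes, and 3 had them below, compared with 8.37%. All these shares were near those of the whole table.

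The log2 folds of the members had a median of 0.04, compared with 0.0088 over all genes. Of the members, 24 (63.2%) lay above 0 and 14 below, compared with 51.7% of all genes above 0. With library totals in place of TMM, 20 members lay above 0. Their median size without sign was 0.09, compared with 0.18 over all genes and 0.13 over the 11958 genes at or above the mean level of the lowest member. Neither comparison was matched for level. The median SE was 0.10 for the members, compared with 0.23 over all genes and 0.15 over those 11958. For 18 members the 95% interval of the fold lay within 1.25-fold in either direction and for 32 within 2-fold. The 6 whose interval reached past 2-fold were Rb1cc1, Wipi1, Atg3, Map1lc3a, Optn and Pink1. For those 6 a change of that size was not excluded by these libraries.

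**Figure D2:**
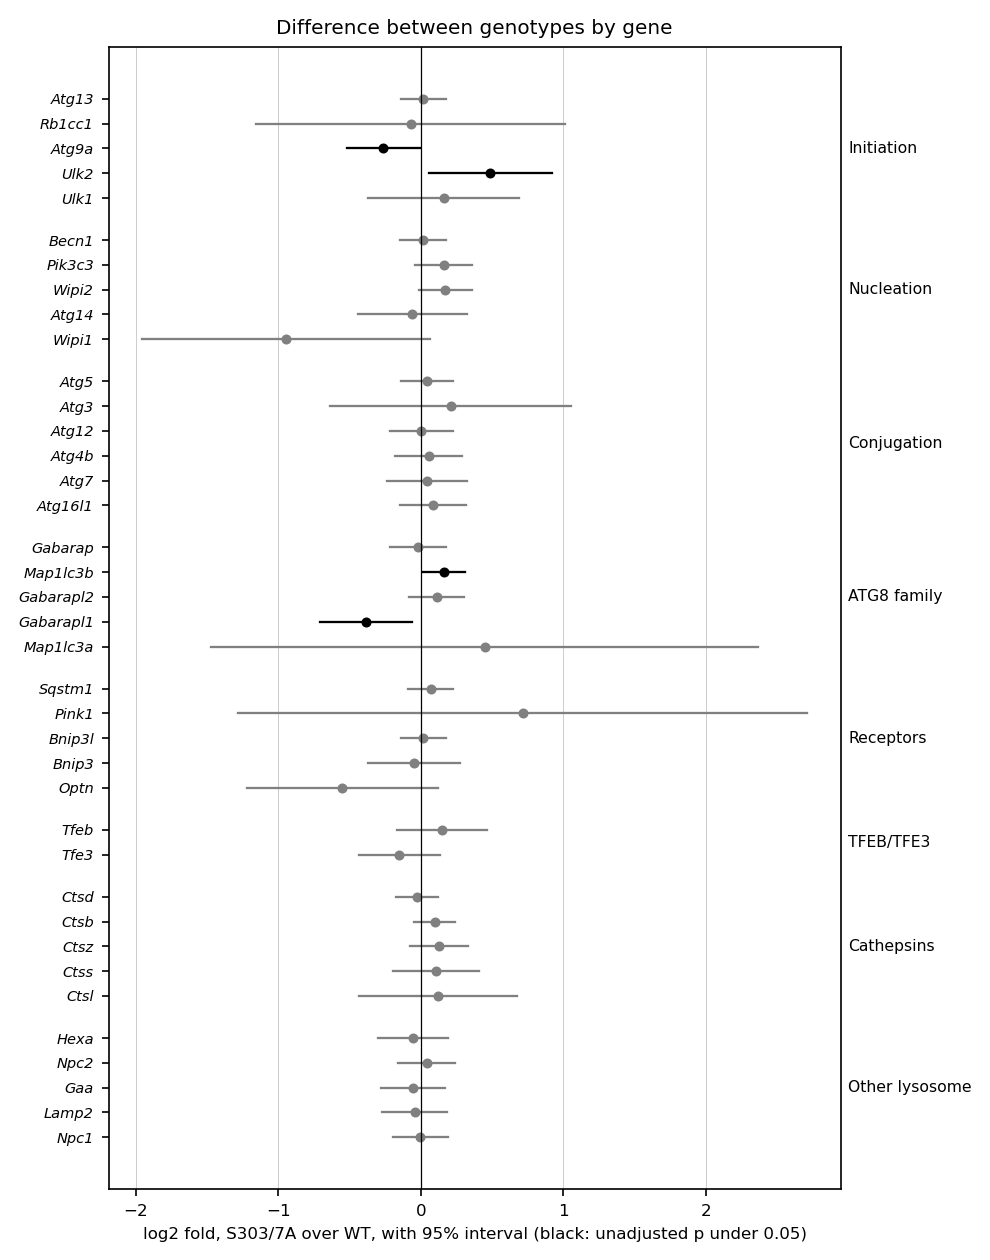
Log2 fold of S303/7A over WT for each gene (x axis) with its 95% interval, genes grouped by role. Black marks the 4 genes at an unadjusted p under 0.05, Ulk2, Atg9a, Map1lc3b and Gabarapl1, and the widest intervals are those of Pink1 and Map1lc3a.

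**Figure D3:**
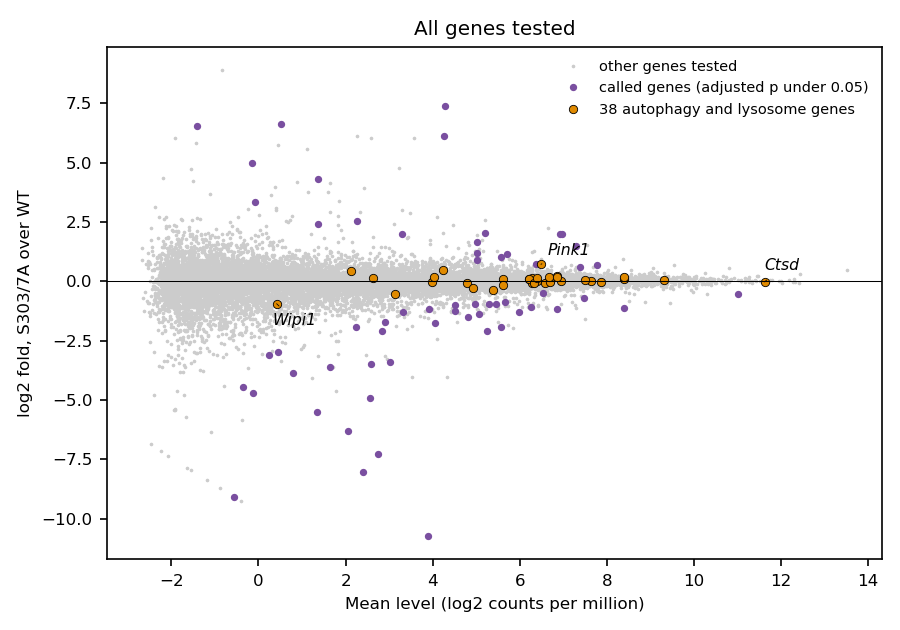
Log2 fold of S303/7A over WT (y axis) against mean level in log2 CPM (x axis) for the 16480 genes tested. The 38 autophagy and lysosome genes (orange) lie among the genes not called, and the 60 called genes are purple.

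The initiation genes encode the ULK kinases, their partners ATG13 and RB1CC1 (also called FIP200), and ATG9A, the membrane protein of the vesicles that seed the autophagosome. None of the 5 was called. Atg13 had the highest level per length of this role, and it was measured at 101, 104 and 104 CPM in WT 1, 2 and 3 and at 107, 105 and 101 CPM in S303/7A 5, 6 and 7. These 6 values lay within a few percent of each other, and the log2 fold was 0.02 ± 0.07 (SE; edgeR adjusted p 0.975).

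Ulk2 (chromosome 11, 61775649 to 61855073, GRCm38, minus strand) encodes a ULK kinase. It was measured at 16.6, 13.8 and 16.5 CPM in WT against 20.8, 17.9 and 27.1 CPM in S303/7A. All 3 S303/7A values lay above the WT values, and S303/7A 7 was the highest. The log2 fold was 0.49 ± 0.18 (SE, 95% interval 0.05 to 0.92), with an unadjusted p of 0.0327 and an adjusted p of 0.459 in edgeR's test, so Ulk2 did not pass. Its paralogue Ulk1 had overlapping groups, at 15.3 ± 2.84 CPM in WT and 17.1 ± 4.04 CPM in S303/7A (SD, n = 3 each), and a log2 fold of 0.16 ± 0.23.

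Atg9a (chromosome 1, 75180860 to 75192196, minus strand) went the other way. Its values were 35.7, 32.4 and 31.7 CPM in WT against 29.0, 26.4 and 27.7 CPM in S303/7A, without overlap. The log2 fold was -0.26 ± 0.11 (SE, 95% interval -0.52 to -0.01), with an unadjusted p of 0.0437 and an adjusted p of 0.499 in edgeR's test. Of the exon length of Atg9a, 31.8% is shared with the transcript Gm29253 on the same strand, to which the table assigns 0 counts. The Rb1cc1 groups overlapped over a wide range of values.

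The nucleation genes encode the lipid kinase complex (Becn1, Pik3c3 and Atg14) and the WIPI proteins. None of these 5 was called. Becn1, which encodes Beclin 1, had the highest level per length of the role, with values of 196, 190.0 and 203 CPM in WT against 206, 204 and 185 CPM in S303/7A. The groups overlapped, and the log2 fold was 0.01 ± 0.07 (SE; edgeR adjusted p 0.977). Of its exon length, 43.9% overlaps Cntd1 on the opposite strand. The sources used here do not give the strand setting of the counting, and reads of the 2 genes may not have been told apart. Cntd1 itself had 117 counts in all 6 libraries and Becn1 63874.

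Wipi2 (chromosome 5, 142627698 to 142670588) was measured at 104, 112 and 110.4 CPM in WT against 132, 115 and 119.7 CPM in S303/7A. The S303/7A values all lay above the WT values, by a log2 fold of 0.17 ± 0.08 (SE), and the adjusted p was 0.563 in edgeR's test. Wipi1 (chromosome 11, 109573331 to 109611967) was the member of lowest level, with 1.16, 2.35 and 1.59 CPM in WT against 1.14, 0.533 and 0.963 CPM in S303/7A. Its groups did not overlap, but WT 1 and S303/7A 5 were almost equal, and these values rest on 73 and 49 counts. Its log2 fold of -0.95 ± 0.43 had a 95% interval from -1.96 to 0.06 and an adjusted p of 0.549 in edgeR's test. Pik3c3 (0.16 ± 0.08) and Atg14 (-0.06 ± 0.16) had overlapping groups.

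The 6 conjugation genes encode ATG12 and ATG5, which are joined to each other, their partner ATG16L1, and the enzymes that process ATG8 proteins and attach them to lipid. Their log2 folds lay between 0.00 and 0.21, all groups overlapped, and the lowest adjusted p in edgeR's test was 0.873. Atg5, the acceptor of ATG12, was the highest of them per length, at 102, 95.5 and 104 CPM in WT against 104, 109 and 96.9 CPM in S303/7A. Its log2 fold was 0.04 ± 0.08 (SE), with an adjusted p of 0.933. The E1-like enzyme gene Atg7 (0.04 ± 0.12), the ATG8 protease gene Atg4b (0.05 ± 0.10), Atg12 (0.00 ± 0.09) and Atg16l1 (0.09 ± 0.10) had SEs of at most 0.12. The E2-like enzyme gene Atg3, shown above with 2 E-box windows, had a wider error, with a log2 fold of 0.21 ± 0.36.

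The ATG8 family had 5 members, of which 0 were called and 3 had groups without overlap, against 16.0% of all genes. With so few genes this share is a description only. Gabarapl1 (chromosome 6, 129533160 to 129542346, plus strand) had the smallest p of all 38 genes. It was measured at 48.4, 39.4 and 54.1 CPM in WT against 37.0, 38.3 and 33.4 CPM in S303/7A. The gap between the groups was narrow, since WT 2 lay just above S303/7A 6. The log2 fold was -0.39 ± 0.14 (SE, 95% interval -0.71 to -0.06), with an unadjusted p of 0.0253 and an adjusted p of 0.432 in edgeR's test.

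Map1lc3b (chromosome 8, 121590361 to 121598760, plus strand) encodes LC3B, the ATG8 protein most often used to follow autophagosomes. Its values were 300.3, 319.8 and 331 CPM in WT against 343, 366 and 354 CPM in S303/7A, without overlap. The difference was small against its level, with a log2 fold of 0.16 ± 0.06 (SE, 95% interval 0.01 to 0.31), an unadjusted p of 0.038 and an adjusted p of 0.483 in edgeR's test. A stretch of 378 bases of Map1lc3b is 99.7% identical to the processed pseudogene Gm6055, to which the table assigns 1552 counts over the 6 libraries, compared with 107740 for Map1lc3b. Reads from this stretch are therefore uncertain.

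Gabarapl2 was measured at 73.7, 66.1 and 73.2 CPM in WT against 74.0, 80.0 and 75.8 CPM in S303/7A. The lowest S303/7A value exceeded the highest WT value by less than 1 CPM, the log2 fold was 0.11 ± 0.08 (SE), and the adjusted p was 0.766 in edgeR's test. It has a pseudogene, Gm3724, that is 99.4% identical over 349 bases. Gabarap, the highest of the family per length, was measured at 234, 214 and 253 CPM in WT against 217, 233 and 241 CPM in S303/7A. Its groups overlapped, with a log2 fold of -0.02 ± 0.08 and an adjusted p of 0.972.

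As a share of the summed level per length of the 5 ATG8 genes, Gabarap made up 55.1% to 56.9% in WT, against 54.6% to 55.2% in S303/7A. Map1lc3b made up 17.6% to 20.3% in WT, against 19.9% to 21.2% in S303/7A, and Gabarapl1 9.33% to 11.2% and 7.01% to 8.55%. The order of the family, from Gabarap through Map1lc3b, Gabarapl2 and Gabarapl1 to Map1lc3a, was the same in all 6 libraries. Map1lc3a encodes LC3A and took between 0.498% and 4.06%. These shares and this order depend on the annotated exon lengths, 7517 bases for Map1lc3b and 1844 for Gabarap. Without the division by length, Map1lc3b (mean 317 CPM in WT, 355 in S303/7A) lay above Gabarap (233 and 230 CPM).

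Gabarapl1 lies in the NK gene complex on chromosome 6, the cluster that encodes lectin-like receptors of NK cells. Within 5 Mb of Gabarapl1, 7 of 124 tested genes were called in edgeR's test (Klra17, Klrb1, Klrb1-ps1, Klrb1a, Klrb1c, Klrc3 and Vwf), and 33.9% had an unadjusted p under 0.05. The nearest called gene was Klrc3, which encodes a receptor of the NKG2 family, at a distance of 0.0967 Mb and with a log2 fold of 1.49. Within 1 Mb, 28 of 49 tested genes (57.1%) had an unadjusted p under 0.05, 16 with a higher and 12 with a lower mean in S303/7A. Differences at that p were thus dense around Gabarapl1 and ran in both directions. Of the exon length of Gabarapl1, 28.3% overlaps 1700101I11Rik on the opposite strand, which had 30 counts.

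**Figure D4:**
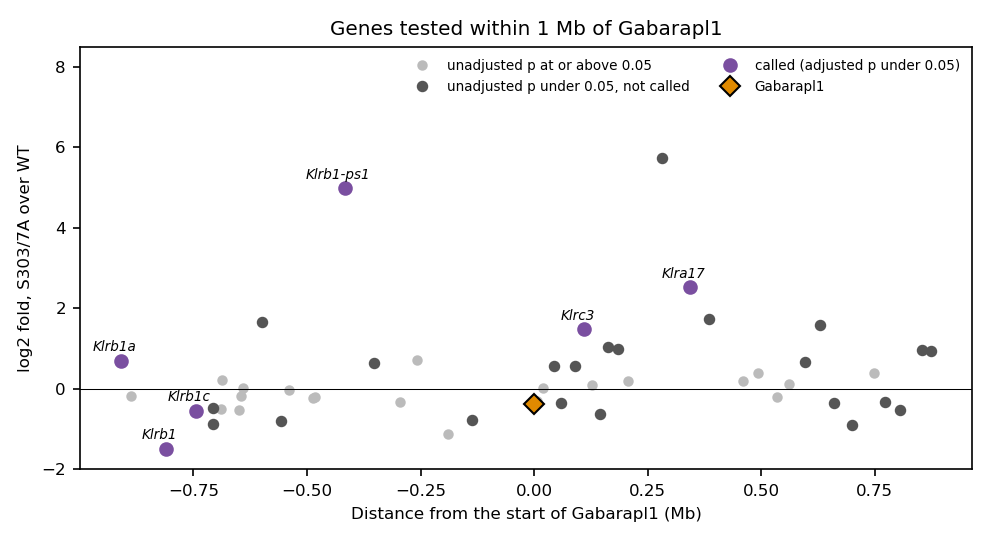
Log2 fold of S303/7A over WT (y axis) of the 49 genes tested within 1 Mb of the start of Gabarapl1, against distance in Mb (x axis). Gabarapl1 (diamond, -0.39) lies between called genes of both directions, from Klrb1 (-1.49) to Klrb1-ps1 (4.98).

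The other Klr genes called in this window were Klrb1a, with a log2 fold of 0.70, Klrb1 (-1.49), Klrb1c, which encodes the NK1.1 antigen (-0.54), Klra17 (2.52) and the pseudogene Klrb1-ps1 (4.98). For the other 37 members the share of neighbours within 5 Mb at an unadjusted p under 0.05 was at most 20.8% (Ctsz), compared with 9.68% over all genes. Atg14 lies 0.155 Mb from Lgals3, a called gene, and its own log2 fold was -0.06. Whether the location bears on the value of Gabarapl1 was not tested.

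The receptors were Sqstm1, which links ubiquitin-tagged cargo to ATG8 proteins, Optn, which encodes optineurin, the mitophagy receptors Bnip3 and Bnip3l, and Pink1, the kinase that marks damaged mitochondria. None of the 5 was called and all 5 groups overlapped. Sqstm1 was measured at 637, 639 and 590.4 CPM in WT against 614, 695 and 648 CPM in S303/7A. The log2 fold was 0.07 ± 0.07 (SE, 95% interval -0.09 to 0.23), and the edgeR test gave an adjusted p of 0.839. Sqstm1 is thus a member that was both abundant and measured tightly, with a coefficient of variation of 4.44% in WT and 6.23% in S303/7A.

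Bnip3l, which encodes NIX, was measured between 118 and 128 CPM in all 6 libraries, with a log2 fold of 0.02 ± 0.07. Bnip3 was measured between 14.1 and 17.3 CPM, with a log2 fold of -0.05 ± 0.14. Both have near-identical pseudogenes, the best match of Bnip3l being Bnip3l-ps at 99.4% over 1131 bases. Optn had 11.6, 11.7 and 7.97 CPM in WT against 6.06, 9.97 and 5.33 CPM in S303/7A. S303/7A 6 lay within the WT range, and the log2 fold was -0.55 ± 0.29 (SE; edgeR adjusted p 0.622).

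Tfeb was measured at 76.9, 94.8 and 68.5 CPM in WT against 86.1, 82.3 and 97.3 CPM in S303/7A. The groups overlapped, with a log2 fold of 0.15 ± 0.13 (SE, 95% interval -0.17 to 0.46) and an adjusted p of 0.818 in edgeR's test. Tfe3 had a log2 fold of -0.15 ± 0.12, so the fitted values of the 2 factors lay on either side of 0. TFEB and TFE3 are controlled largely through their place in the cell, which transcript counts do not measure.

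Among the 5 cathepsin genes, 0 were called and all groups overlapped. Ctsd was measured at 3066, 3200.0 and 3289 CPM in WT against 2896, 3196 and 3276 CPM in S303/7A. The lowest and the highest of the 6 values differed 1.14-fold, the log2 fold was -0.03 ± 0.06 (SE, 95% interval -0.18 to 0.12), and the adjusted p was 0.944 in edgeR's test. Of the exon length of Ctsd, 34.4% is shared with the locus Gm49369 on the same strand, which had 14 counts. The cysteine proteases had log2 folds of 0.10 ± 0.06 for Ctsb, 0.13 ± 0.09 for Ctsz, 0.11 ± 0.13 for Ctss and 0.12 ± 0.24 for Ctsl. Cathepsins S and L are abundant in macrophages, and the summed monocyte and macrophage markers were 31.6 to 50.6 CPM in WT, against 25.2 to 37.6 CPM in S303/7A. Of the 8 markers on that list, 6 passed the filter and 5 of the 6 had fitted folds below 0. The part of these cells in the cathepsin values was not tested.

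The other lysosome genes were those of the membrane protein LAMP2, the cholesterol exporters NPC1 and NPC2, and the hydrolases hexosaminidase A and acid alpha-glucosidase. Their log2 folds lay between -0.06 and 0.04, all 5 groups overlapped, and the lowest adjusted p in edgeR's test was 0.923. Hexa, the highest per length, was measured at 104, 97.0 and 91.9 CPM in WT against 97.3, 103 and 82.0 CPM in S303/7A. Its log2 fold was -0.05 ± 0.10 (SE), with an adjusted p of 0.933. For each of the 5 the 95% interval of the log2 fold lay between -0.30 and 0.24.

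A few members had a wide spread between mice of 1 genotype. Pink1 was measured at 114, 74.5 and 15.3 CPM in WT 1, 2 and 3 and at 47.4, 44.3 and 242 CPM in S303/7A 5, 6 and 7. WT 3 was the lowest and S303/7A 7 the highest, a span of 15.8-fold over the 6 libraries. The SD of its log2 level within genotypes was 1.44, and 0.26% of the 11159 genes with a mean of at least 2 CPM were as variable. Its log2 fold of 0.71 ± 0.85 (SE) had an adjusted p of 0.878 in edgeR's test, and was -0.57 without S303/7A 7. Leaving out the highest S303/7A value could only lower that fold.

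Map1lc3a had the same lowest and highest libraries, at 5.29, 4.27 and 1.41 CPM in WT against 2.03, 1.55 and 11.3 CPM in S303/7A. Rb1cc1 was measured at 112, 97.8 and 36.2 CPM in WT against 73.8, 45.0 and 115 CPM in S303/7A. Atg3 had 135, 132 and 54.8 CPM in WT against 131, 85.1 and 156 CPM in S303/7A. In each of these genes WT 3 was the lowest of its genotype and S303/7A 7 the highest of its own. Tfeb shared those 2 ends at a smaller spread. A processed pseudogene, Gm13961, is 94.8% identical to Rb1cc1 over 4807 bases and had 48 counts.

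The within-genotype SD was 1.15 for Map1lc3a, 0.78 for Rb1cc1 and 0.61 for Atg3, and these and Pink1 were the 4 members with an SD of at least 0.5. That SD was reached by 9.17% of the 11159 genes. Most other members had a smaller SD than the median gene at that level. The median SD was 0.11 over the 37 members there, compared with 0.17 over the 11159 genes. Of the 37 members, 26 lay below the median of those genes. This comparison was not matched for level, and 34 of the 38 members had a mean above 10 CPM. Sqstm1, Ctsd, Ctsb and Bnip3l are examples of the steady members.

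**Figure D5:**
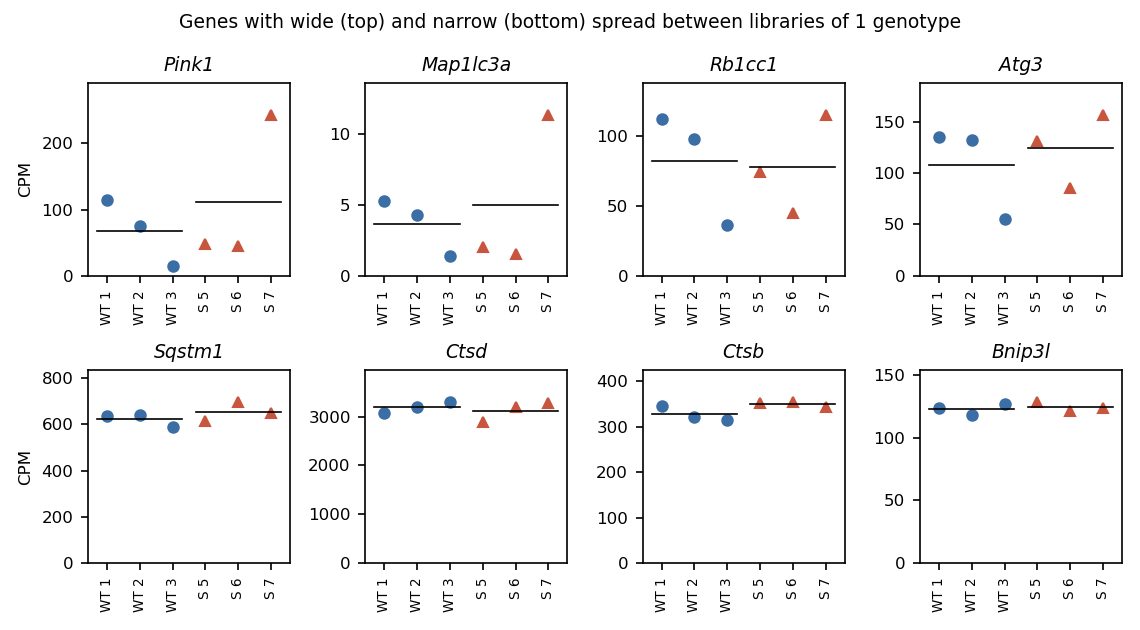
Level in CPM (y axis, from 0) of 4 members with a wide spread (top) and 4 with a narrow spread (bottom) in each library (x axis; S is S303/7A). Lines mark the mean of each genotype. In the top row WT 3 is the lowest WT library and S303/7A 7 the highest S303/7A library for all 4 genes.

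The same 2 libraries stood at the ends for other genes of wide spread. Among the 386 genes with a within-genotype SD of at least 0.8, WT 3 was the lowest WT library and S303/7A 7 the highest S303/7A library for 292 (75.6%), compared with 15.5% of all 11159 genes and 5 of the 37 members. These ends were named after the values of Pink1 had been seen. Eomes, the transcription factor gene of mature NK cells and one of the NK markers, was among them, at 476, 316 and 148 CPM in WT against 180.5, 140.0 and 717 CPM in S303/7A. Without both libraries the log2 fold of Pink1 was -1.04 (edgeR adjusted p 0.135), and those of Map1lc3a, Rb1cc1 and Atg3 were -1.41, -0.82 and -0.31. For each of these genes the libraries left out held the lowest WT and the highest S303/7A value. Leaving them out had to lower the fold, so these folds and this p cannot decide whether the genotypes differ. None of the 38 genes was called without WT 3 and S303/7A 7.

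A wider list of 130 genes of the same pathways, none of them a member, was read from the same fit. Of these, 127 passed the filter and 0 were called in edgeR's test, 6 (4.72%) had an unadjusted p under 0.05, 5 with a lower and 1 with a higher mean in S303/7A, and 14 (11%) had groups without overlap. Both shares lay below those of the whole table, 9.68% and 16.0%. Their median log2 fold was 0.01. By role, the 13 initiation and nucleation genes tested had log2 folds from -0.18 to 0.24 and the 12 genes of fusion with the lysosome from -0.25 to 0.23. Of the 16 subunits and accessory proteins of the vacuolar ATPase, the pump that makes the lysosome acid, 15 had a log2 fold within 0.5 of 0, as did 38 of the 39 hydrolase genes tested. Ctsw, a cathepsin of cytotoxic lymphocytes, was measured between 1496 and 1622 CPM in all 6 libraries, with a log2 fold of 0.01 ± 0.05.

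The 3 pathway genes with the smallest p had all S303/7A values below the WT values. Cd63, a tetraspanin of the lysosome and of secretory granules, was measured at 52.0, 81.4 and 70.4 CPM in WT against 34.3, 29.3 and 36.4 CPM in S303/7A, a log2 fold of -1.03 ± 0.17 (SE). Manba, the lysosomal beta-mannosidase gene, had 125, 107 and 108 CPM in WT against 77.7, 80.8 and 64.8 CPM in S303/7A, a log2 fold of -0.60 ± 0.11. Atp6v0a1, a membrane subunit of the vacuolar ATPase, had 9.48, 11.1 and 12.1 CPM in WT against 3.64, 4.38 and 6.14 CPM in S303/7A, a log2 fold of -1.20 ± 0.24. Their adjusted p values were 0.1003, 0.115 and 0.135 in edgeR's test, so none passed. DESeq2, which called 434 genes over the whole table, called all 3. Without the filter on low counts edgeR called Cd63 and Manba, and more genes over the whole table than with it. In limma-voom none of the 3 was called (adjusted p 0.134, 0.120 and 0.127). The 3 genes were picked by their smallest p in the same data, so these calls are not separate evidence.

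CD63 is also a protein of basophil and platelet granules. The 8 basophil markers summed to 416 to 849 CPM in WT, against 255 to 356 CPM in S303/7A, and all 8 had fitted folds below 0. The platelet markers summed to 291 to 322 CPM in WT, against 136 to 197 CPM in S303/7A, and all 9 tested of 10 had fitted folds below 0. No marker of either list was at 0 over the 6 libraries. The part of these cells in the values of Cd63, Manba and Atp6v0a1 was not tested.

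The other 3 pathway genes at an unadjusted p under 0.05 had smaller differences. Gm2a, the activator of hexosaminidase A, had a log2 fold of -0.33 ± 0.08 (edgeR adjusted p 0.236). Scarb2, the lysosomal membrane protein LIMP-2, had 0.21 ± 0.08 (adjusted p 0.485) and Vps39, a subunit of the HOPS tethering complex, -0.25 ± 0.10 (adjusted p 0.502). The groups of Gm2a and Scarb2 did not overlap and those of Vps39 did. Hexa, whose product works with that of Gm2a, had overlapping groups, as given above.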

How the data were processed

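The authors deposited raw counts per gene, and these were the values tested; their normalized table was not used. Per the submitters' processing notes, the reads passed through Trimmomatic, STAR, featureCounts and DESeq2 with GRCm38 (mm10). The sources used here do not give versions, annotation release or strand setting. In R 4.3.3, edgeR 4.0.16 (filterByExpr, minimum count 10 and total 15; TMM; non-robust quasi-likelihood test) compared 3 S303/7A with 3 WT libraries over 16480 genes. A gene was called at a Benjamini-Hochberg adjusted p under 0.05. Standard errors and 95% intervals are Wald-type from that fit. The script was tested on simulated data. Alternatives were other scalings and filters, DESeq2 1.42.0, limma-voom 3.58.1, counts thinned to 43189163 per library, and leaving out libraries. Exon lengths and overlaps came from GENCODE M21, copies from BLAST 2.17.0 (at least 200 bases at 90% identity), and promoter sequence from RefSeq (GRCm38.p6). Named in full were members called, at an unadjusted p under 0.05, without overlap or highest per length in their role, and pathway genes at that p. Genes named for spread or location were chosen after their values were seen. The members and lists were chosen with earlier results of these data known.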

Additional observations from a re-analysis of the deposited data

How the results depend on the processing

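No paired analysis was possible because the groups share no replicate numbers. None of the 38 genes was called under any of the 14 alternatives, 13 of them planned and the other, leaving out WT 3 together with S303/7A 7, chosen after seeing the data. The lowest adjusted p was 0.135 in edgeR's test (Pink1, without both libraries). The libraries left out there held the lowest WT and the highest S303/7A value of Pink1, so this p cannot decide whether the genotypes differ. The whole table held 171 called genes without the low-count filter, 434 in DESeq2, 38 in limma-voom and 5 to 57 with libraries left out (5 without WT 2). The wider pathway list held 2 without the filter and 3 in DESeq2. Members at an unadjusted p under 0.05 numbered 2 without the filter, against 10.2% of the 16480 genes, and 0 to 4 with libraries left out, against 6.61% to 13.9%. The 0 was without S303/7A 7, where the share of all genes was 10.3%. Members without overlap numbered 9 to 11 (23.7% to 28.9%) with 1 library left out, against 23.5% to 28.8% of all genes, and 19 (50%) without both, against 46.9%.

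Folds near 0 changed sign, and so did the larger log2 folds of Pink1 (0.71 with all libraries), Map1lc3a (0.45) and Atg3 (0.21). With library totals in place of TMM the log2 fold was -0.013 for Atg13, -0.014 for Becn1, -0.027 for Atg12 and -0.011 for Bnip3l. That of Atg12 was also -0.0076 without the filter, -0.0013 in DESeq2 and -0.00024 in limma-voom, and that of Rb1cc1 was 0.030 in limma-voom. With 1 library, or WT 3 and S303/7A 7, left out, the log2 folds of 24 members took both signs, over these ranges: Ulk1 -0.0080 to 0.33, Atg13 -0.0024 to 0.049, Rb1cc1 -0.82 to 0.22, Becn1 -0.020 to 0.087, Atg14 -0.21 to 0.052, Atg3 -0.31 to 0.42, Atg4b -0.015 to 0.14, Atg5 -0.0057 to 0.11, Atg7 -0.032 to 0.13, Atg12 -0.045 to 0.074, Map1lc3a -1.41 to 0.87, Gabarap -0.091 to 0.039, Bnip3 -0.13 to 0.0033, Bnip3l -0.023 to 0.046, Pink1 -1.04 to 1.32, Tfeb -0.028 to 0.27, Ctsd -0.068 to 0.023, Ctsl -0.057 to 0.28, Ctss -0.0051 to 0.20, Lamp2 -0.10 to 0.032, Npc1 -0.047 to 0.046, Npc2 -0.014 to 0.13, Hexa -0.12 to 0.032 and Gaa -0.11 to 0.021. The cause was not tested. The other 14 members kept their sign under all 14 alternatives. With 3 libraries per genotype, exact permutation of 1 gene's values could not go below a p of 0.1. The members of lowest mean CPM were Wipi1, Map1lc3a and Ctsl.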

Other observations

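Outside the 38 genes, Rragc, which encodes a Rag GTPase of the mTORC1 pathway at the lysosome, had the library ends of Pink1. Rragc was measured at 72.0, 53.8 and 25.2 CPM in WT and at 46.3, 37.2 and 114 CPM in S303/7A. Of the 123 pathway genes with a mean of at least 2 CPM, 14 (11.4%) had those ends, compared with 15.5% of all genes. Lamp1 encodes the lysosomal membrane protein related to LAMP2. It stood at 12.9 to 16.3 CPM in WT and at 16.5, 17.0 and 31.6 CPM in S303/7A. The groups did not overlap, as for 16.0% of all genes tested, but WT 2 (16.3) lay just below S303/7A 5 (16.5). Lamp1 also had the library ends of Pink1, with S303/7A 7 far above the other S303/7A values. Its log2 fold was 0.53 ± 0.27 (SE), and the edgeR test gave an adjusted p of 0.613.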
